A study of Mus musculus with 32 samples.

Results

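The genes described here are 9 that encode actin or proteins that bind it: the cytoplasmic actins Actb and Actg1, the filament-severing proteins Cfl1, Cfl2 and Dstn, the profilins Pfn1 and Pfn2, and the thymosins Tmsb4x and Tmsb10. They were chosen by gene symbol, not by a cut on any measured value, from the 55573 genes of the count table. Earlier results of these data were known when they were chosen. All 9 are protein-coding and were measured in every library. The study compared mRNA in the cell bodies and neurites of mouse hippocampal neurons with and without the m6A methyltransferase Mettl3, and before and after depolarization. RNA-seq gave 16 libraries in 8 groups of 2, and DART-seq, a method that marks m6A by C-to-U conversion, gave site lists. The neurons came from WT (C57BL/6) pups or from Mettl3Flox/Flox pups, termed Mettl3 KO (genotype Mettl3-/-), newborns of 1 litter being pooled for each culture and the replicates coming from separate litters. All cultures, WT included, received an AAV carrying Cre-P2A-dTomato on day 7 in vitro, with the neuronal hSyn promoter, so that glia in the same culture were not the target of the deletion. Cells were grown on porous inserts, silenced with 1 µM TTX and 50 µM D-AP5 for 16 h, and on day 15 either left as they were (Ctrl) or given 55 mM KCl for 2 h. Neurites were scraped from the underside of the membrane and the soma fraction from the top, and the soma fraction also held neurites that had not crossed.

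Actin cycles between free monomers (G-actin) and filaments (F-actin), and this cycle shapes growth cones, dendritic spines and axons. Profilins load ATP-actin onto growing filament ends, thymosins hold monomers in reserve, and cofilins and destrin sever old filaments and return their subunits to the pool. Actb mRNA is a classical localized mRNA: its 3′UTR carries a zipcode that the binding protein Igf2bp1 (ZBP1) recognises, and the message travels into neurites. When monomers run low, the cofactor Mrtf is freed and drives the transcription factor Srf, whose targets include actin genes.

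In GRCm38 the actins are Actb (ENSMUSG00000029580) at chr5:142903115-142906754 on the minus strand and Actg1 (ENSMUSG00000062825) at chr11:120345690-120348542 on the minus strand. The severing proteins are Cfl1 (ENSMUSG00000056201) at chr19:5490455-5495201 on the plus strand, Cfl2 (ENSMUSG00000062929) at chr12:54858809-54862877 on the minus strand and Dstn (ENSMUSG00000015932) at chr2:143915320-143943324 on the plus strand. The profilins are Pfn1 (ENSMUSG00000018293) at chr11:70651850-70654644 on the minus strand and Pfn2 (ENSMUSG00000027805) at chr3:57841895-57848079 on the minus strand, and the thymosins Tmsb4x (ENSMUSG00000049775) at chrX:167207093-167209315 on the minus strand and Tmsb10 (ENSMUSG00000079523) at chr6:72957347-72958748 on the minus strand.

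Several sequences frame the measurements. The zipcode begins just after the stop codon of Actb. Its first 30 bases, from the GRCm38 genome at chr5:142903768-142903797 on the minus strand, are shown because they hold the elements that the zipcode is known for, with the first CGGAC and the first ACA in capitals.
Actb zipcode start: gCGGACtgttactgagctgcgttttACAcc
The CGGAC element starts at base 2 of the 3′UTR and ACA at base 26. Of the 9 genes, CGGAC lay within the first 100 bases of the 3′UTR in Actb alone, and Tmsb10 had 1 further on in its 265-base 3′UTR.

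DART-seq called 5 sites in these genes. Each is shown as 30 bases of the GRCm38 transcript strand, with the A called as methylated and its neighbours (the RAC motif, R being A or G) in capitals and the converted C as the last capital.
Actb, coding exon 4 of 6, chr5:142904669-142904698 on the minus strand: ggcattgtgatgGACtccggagacggggtc
Cfl2, coding exon 2 of 4, chr12:54861624-54861653 on the minus strand: gacactgtagagGACccctacacatctttt
Cfl2, 3′UTR in exon 4 of 4, chr12:54860879-54860908 on the minus strand: ttagccaaaacaAACtggttccatgccttc
Pfn1, 3′UTR in exon 3 of 3, chr11:70651957-70651986 on the minus strand: gctggatggacaGACacctccccctaccca
Dstn, 5′UTR in exon 1 of 4, chr2:143915568-143915597 on the plus strand: tgctacccggagGACgaaggtgcacagact
4 of the 5 sites read GAC and the Cfl2 site in the 3′UTR reads AAC.

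Conversion at these sites was low except at 1 of them. The deposited value is the average share of converted reads over the WT libraries, with no value per replicate and no coverage, so its error and depth are unknown. The Cfl2 site 231 bases after the stop codon reached 8.73%, a value above 87.3% of the 18231 listed sites, whose median was 3.54%. The coding site of Cfl2 stood at 1.53%. Pfn1, 152 bases after its stop codon, stood at 2.12%, and Dstn at 1.97%. Actb had the lowest of the 5, 0.595%, above 1.16% of listed sites.

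**Figure D1:**
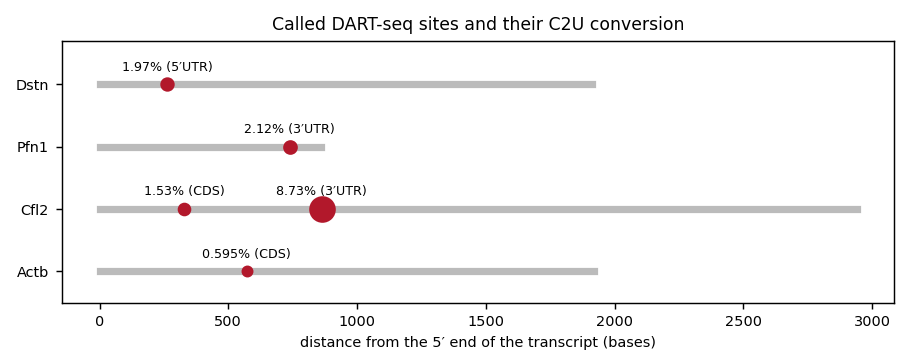
Positions of the 5 called DART-seq sites along the transcripts of Actb, Cfl2, Pfn1 and Dstn, in bases from the 5′ end, with the average C2U conversion (percent) and the region printed at each and the marker size rising with conversion. The Cfl2 site at 8.73% is the largest, and the Actb site at 0.595% the smallest.

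Of the 94 pathway symbols described further on, 63 were listed with a site. Of all 55573 genes of the count table, 5603 were, a set not matched for level or length. The other 5 members, Actg1, Cfl1, Pfn2, Tmsb4x and Tmsb10, were not among the 5643 RNAs listed with a site. RNAs as abundant as these usually had one: of 3104 protein-coding genes with a mean WT level at or above that of Cfl2, the lowest of the 9 at 65.5 CPM, 83.3% were listed, against 4 of the 9. That set was chosen by level alone and not matched for length, and the transcripts of Tmsb4x and Tmsb10 are short, at 768 and 690 bases. RAC motifs were present in all 9, from 19 in the Tmsb4x transcript to 62 in Cfl1. GGAC, the form most often methylated, occurred once in Tmsb4x, 7 times in Tmsb10 and 12 times in Cfl1.

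The authors' editing score is a sum of converted fractions over the sites of an RNA. For Cfl2 the WT score was 0.0973, which is not the sum of its site values above, higher than 47.3% of listed RNAs, and the Mettl3 KO score was 0.0201. The score of Actb was 0.00595 in WT and 0.00323 in Mettl3 KO, and only 0.301% of listed RNAs had a lower WT score. Pfn1 stood at 0.0212 in WT and 0.00877 in Mettl3 KO, and Dstn at 0.0197 and 0.00436. A drop from WT to Mettl3 KO was part of how sites were called, so it is no separate result. Between compartments, Actb scored 0.00310 in soma and 0.00993 in neurites, Cfl2 0.0661 and 0.127, Dstn 0.0156 and 0.0260, and Pfn1 0.0221 and 0.0204. These pairs carry no replicate error and were not tested. In soma the score of Actb did not exceed its Mettl3 KO score of 0.00323.

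The RNA-seq libraries held 33789183 to 71394235 counted fragments, of which the 9 genes took 0.652% to 1.21%. Actb ranked between 4th and 28th by counts among 21867 protein-coding genes. Mettl3, the deleted gene, read 9.05 to 16.7 CPM (counts scaled to library size, with TMM factors over the 16 libraries) in the WT libraries and 3.91 to 11.0 CPM in those of Mettl3 KO. Within each compartment and treatment both Mettl3 KO libraries were below both WT libraries, and over the whole gene reads from undeleted exons and from cells without Cre still count. Some Mettl3 KO libraries stood apart. In Mettl3 KO Soma Ctrl replicate 2, protein-coding genes of at most 1500 exon bases took 1.83% of protein-coding counts and ribosomal protein mRNAs summed to 3868 CPM, whereas the other 15 libraries had 4.51% to 8.45% and 10225 to 29544 CPM. In the KCl-treated Mettl3 KO libraries of replicate 1, the 11 astrocyte markers summed to 9917 CPM in soma and 19363 CPM in neurites, and the 8 oligodendrocyte-lineage markers to 3673 and 7339 CPM, against at most 6745 and 191.7 CPM in any other library. The 10 neuronal markers summed to 3508 to 6565 CPM in the 6 other groups, and the lowest sums were 2160 CPM in Mettl3 KO Soma KCl and 1206 CPM in Mettl3 KO Neurite KCl. The SD of the log2 ratio between replicates was 0.198 to 0.402 in WT groups and 0.552 to 1.46 in Mettl3 KO groups.

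Per kilobase of annotated exon, Actb came first of the 9 in WT Soma Ctrl, at 753 ± 2.997 CPM per kb (mean ± SD, n = 2). Tmsb4x followed at 653 ± 23.9, then Actg1 at 444 ± 0.636 and Tmsb10 at 441 ± 33.4, which overlapped. Cfl1 stood at 257 ± 0.180, Dstn at 115 ± 8.35, Pfn1 at 104 ± 1.74, Pfn2 at 98.8 ± 0.832 and Cfl2 at 17.9 ± 0.583. In WT Neurite Ctrl the thymosins led, with Tmsb4x at 997 ± 87.6 and Tmsb10 at 887 ± 56.6 CPM per kb, ahead of Actb at 725 ± 38.1. Dstn (108 ± 0.935) and Pfn1 (108 ± 0.724) overlapped there. The order depends on the length used, since the exon length joins all annotated exons of a gene. Per kilobase of 1 annotated transcript each, WT Soma Ctrl had Tmsb4x first at 1165 ± 42.6, ahead of Actb at 1051 ± 4.18, and Tmsb10 at 816 ± 61.7 ahead of Actg1 at 605 ± 0.866. Pfn1 (291 ± 4.86) and Pfn2 (149 ± 1.26) then stood above Dstn (115 ± 8.35). In WT Neurite Ctrl the thymosins led on this scale too.

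**Figure D2:**
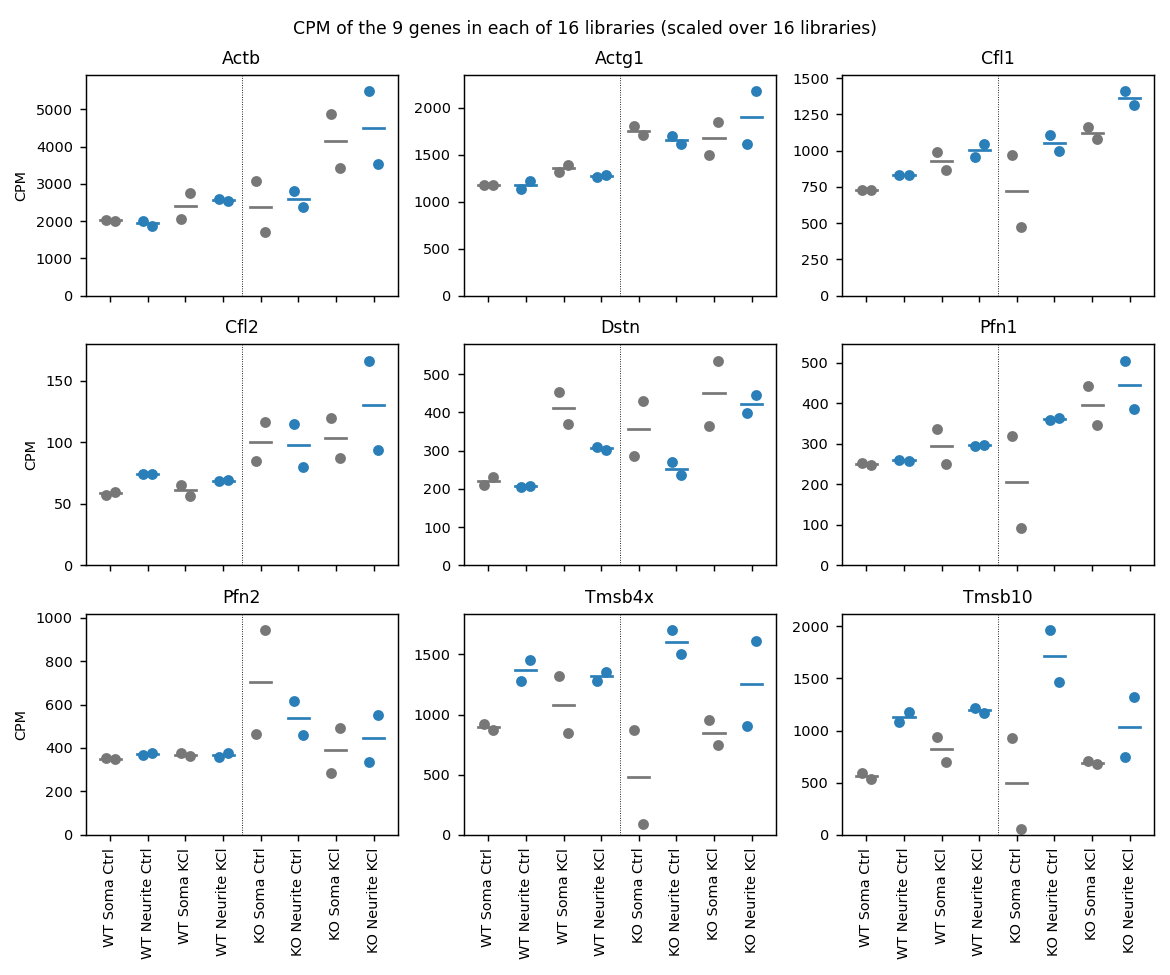
CPM of each of the 9 genes (y axis, from 0) in the 8 groups, scaled over the 16 libraries, with 1 point per library and a line at the group mean (grey, soma; blue, neurites; dotted line, WT to the left and Mettl3 KO to the right). Tmsb10 and Tmsb4x lie near 0 in Mettl3 KO Soma Ctrl replicate 2, at 61.7 and 94.4 CPM.

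The first comparison asked which of these mRNAs are enriched in neurites of silenced WT neurons. Tmsb10 was the only one of the 9 called at 1.5-fold and an adjusted p of at most 0.05 (edgeR quasi-likelihood test, Benjamini-Hochberg), where 13.6% of 23200 genes were called. Levels of the 9 below are CPM scaled within the WT libraries, as in the fit, and sums over marker or ribosomal protein genes are CPM scaled over all 16. Tmsb10, which sequesters actin monomers, stood at 597 and 535 CPM in soma and at 1021 and 1115 CPM in neurites. Both neurite libraries were above both soma libraries, a log2 change of 0.91 (SE 0.14, adjusted p = 0.00184). Its paralog Tmsb4x read 924 and 876 CPM in soma and 1212 and 1369 CPM in neurites, also without overlap. The log2 change was 0.52 (SE 0.17) and the adjusted p of 0.0543 missed the threshold. That result was close to the line: with TMM factors from all 16 libraries it was 0.61 (adjusted p = 0.0339) and with the 4 compared libraries alone 0.60 (adjusted p = 0.00427), and Tmsb4x was then called.

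Actb, the localized mRNA of the textbooks, was not called in either direction. It stood at 2036 and 2022 CPM in soma and at 1902 and 1762 CPM in neurites, a log2 change of −0.15 (SE 0.14, adjusted p = 0.469). Actg1, its near-identical partner, differed by −0.095 (SE 0.095). Cfl2, the muscle-type cofilin, read 57.6 and 60.2 CPM in soma and 69.8 and 69.8 CPM in neurites, a change of 0.24 (SE 0.11, adjusted p = 0.135). Cfl1, Pfn1, Pfn2 and Dstn lay between −0.19 and 0.096. Both neurite libraries were above both soma libraries for 4 of the 9 (27.3% of all genes) and below them for 4 (39.3% of all genes). The median over all genes in this fit was −0.098. In bulk RNA a change in the cells present and a change in RNA per cell cannot be told apart. Markers of other cells differed with the compartment. The astrocyte list summed to 1160 to 1183 CPM in soma and 2051 to 3144 CPM in neurites. Its members did not move alike: mean Gfap was 512 CPM in soma and 1485 CPM in neurites, and mean Slc1a2 228 and 234 CPM. The list of fibroblasts, mural and vascular cells summed to 31.4 to 37.0 and 139 to 174 CPM. That of microglia summed to 12.4 to 14.5 and 23.2 to 30.4 CPM, and the oligodendrocyte lineage to 58.8 to 67.5 and 116 to 125 CPM. No listed marker was at 0, and the part of these cells in the enrichment of Tmsb10 was not tested. The 93 ribosomal protein mRNAs, short like the thymosins, summed to 10225 to 11159 CPM in soma and to 19976 to 22811 CPM in neurites, which was not tested as a part of the result either.

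After KCl, no gene of the 9 was called in neurites against soma, where 9.6% of 23028 genes were. Tmsb10 read 888 and 673 CPM in soma and 1189 and 1122 CPM in neurites, a log2 change of 0.56 (SE 0.14, adjusted p = 0.0223) that stayed below 1.5-fold. Without WT Soma KCl replicate 1 it was 0.81 (adjusted p = 0.00194), and Tmsb4x was called as well. Dstn, which severs filaments and binds monomers, was lower in neurites at 301 and 289 CPM than in soma at 428 and 357 CPM, a change of −0.41 (SE 0.12, adjusted p = 0.0417), also below 1.5-fold. At any fold, 13.4% of genes passed the adjusted p. Without WT Soma KCl replicate 1 the change of Dstn was −0.25 (SE 0.10, adjusted p = 0.141). The other 7 lay between −0.070 and 0.30. The change of the neurite over soma ratio with KCl, fitted with a term for each pair of libraries with the same number, was called for none of the 9 (1.5-fold, p not adjusted, at most 0.05), where 3.36% of 23200 genes were. It was −0.34 (SE 0.20) for Tmsb10, −0.22 (SE 0.18) for Dstn and 0.28 (SE 0.21) for Actb, each with an adjusted p of 0.999 (edgeR).

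**Figure D3:**
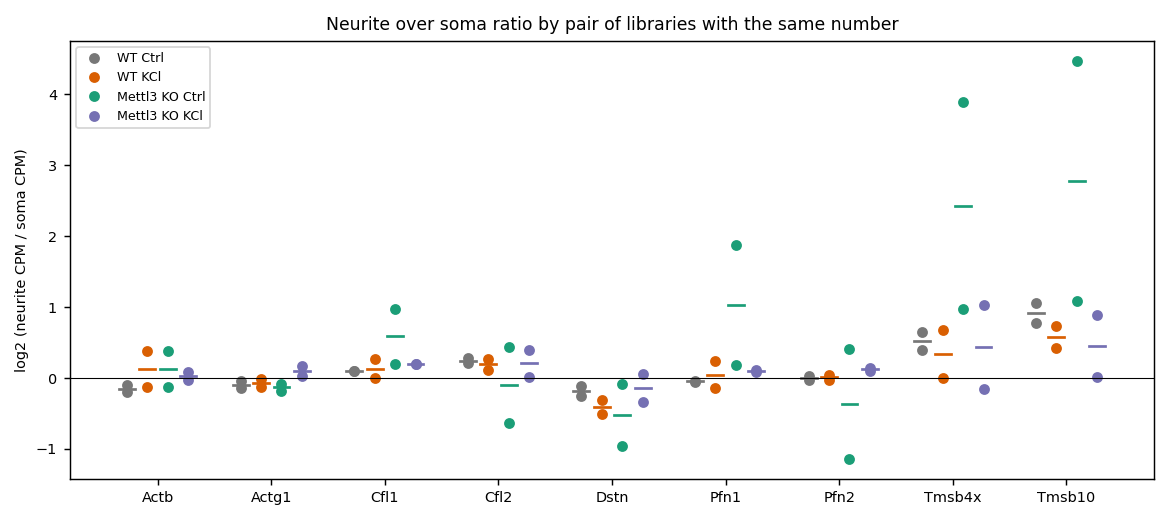
Log2 ratio of neurite to soma CPM, scaled within each genotype, for each pair of libraries with the same number (points) and their mean (lines) in 4 conditions. In WT Ctrl the 2 pairs of Tmsb10 lie at 0.77 and 1.06, and in Mettl3 KO Ctrl at 1.09 and 4.47, the highest from the soma library poor in short mRNAs.

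After 2 h of depolarization, Dstn had the largest change of the 9 in both WT compartments, and it passed the adjusted p in each. No gene of the 9 reached the 2-fold threshold with an adjusted p of at most 0.05 in WT soma, where 6.7% of 24060 genes were called. For reference, the immediate early gene Fos read 12.7 ± 0.299 CPM under Ctrl and 2977 ± 322 CPM after KCl (mean ± SD, n = 2, scaled over 16 libraries). At any fold, 13.2% of genes passed the adjusted p, and 2 of the 9 did. Dstn went from 210 and 232 CPM to 428 and 357 CPM, a log2 change of 0.83 (SE 0.12, adjusted p = 0.00112). Tmsb10 went from 597 and 535 CPM to 888 and 673 CPM, a change of 0.47 (SE 0.14, adjusted p = 0.0468). That pass was marginal: it held under 6 of 12 alternatives, and the change was 0.26 (adjusted p = 0.162) without WT Soma KCl replicate 1 and 0.66 (adjusted p = 0.00258) without replicate 2. For Dstn in soma 11 of 12 alternatives passed. The KCl libraries lay wholly above the Ctrl libraries for these, Actg1 and Cfl1, 4 of the 9, against 27.6% of all genes. Cfl1, the main neuronal cofilin, moved by 0.27 (SE 0.10, adjusted p = 0.115), and Actb by 0.18 (SE 0.13, adjusted p = 0.454), its KCl libraries reading 1936 and 2663 CPM on either side of the Ctrl libraries.

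In WT neurites, 5.03% of 22059 genes were called at 2-fold and again none of the 9. Dstn passed the adjusted p, as did 8.83% of genes at any fold, with 194 and 196 CPM under Ctrl and 301 and 289 CPM after KCl, a difference of 0.60 on the log2 scale (SE 0.12, adjusted p = 0.00937), which passed under 8 of 12 alternatives. Actb read 1902 and 1762 CPM before and 2523 and 2439 CPM after KCl. The groups did not overlap, yet its change of 0.44 (SE 0.14) had an adjusted p of 0.0788. Cfl1 changed by 0.30 (SE 0.099, adjusted p = 0.0918) and Pfn1, the ubiquitous profilin, by 0.23 (SE 0.13, adjusted p = 0.315). Pfn2, the neuronal profilin, moved by 0.018 (SE 0.094) in neurites and 0.0041 (SE 0.096) in soma. The KCl libraries were wholly higher for 6 of the 9, against 28.9% of all genes, and wholly lower for Cfl2, against 23.9%. The changes of the 9 ran from −0.020 to 0.83 in soma and from −0.071 to 0.60 in neurites.

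**Figure D4:**
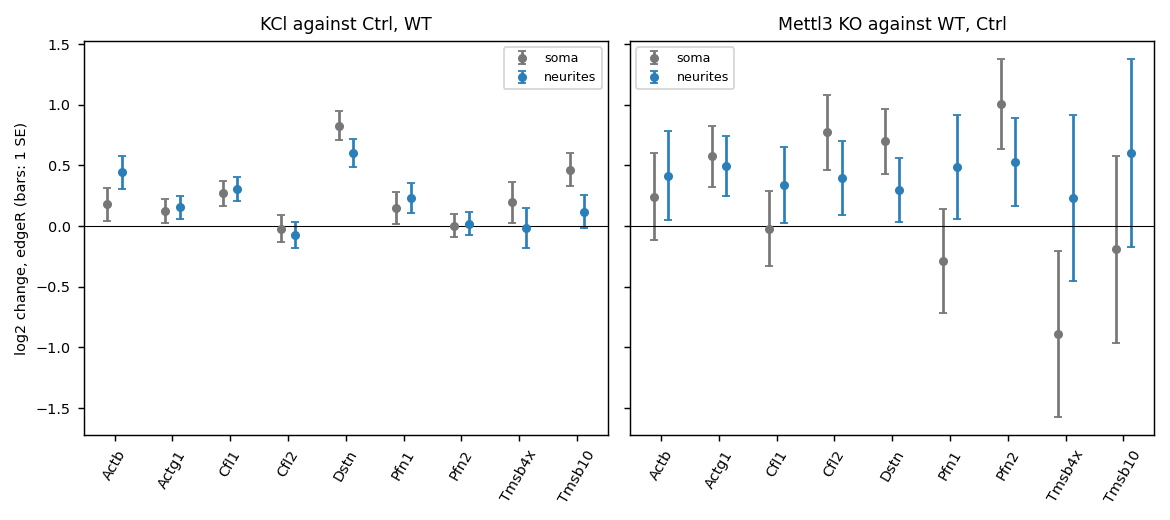
Log2 change (y axis, edgeR, bars 1 SE) of the 9 genes after KCl in WT neurons (left) and in Mettl3 KO against WT neurons under Ctrl (right), in soma (grey) and neurites (blue). Dstn is highest after KCl, at 0.83 in soma and 0.60 in neurites, and the Mettl3 KO bars are longer.

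Among 94 other gene symbols of the actin pathway, 88 were tested in WT neurons. The 94 hold Mrtfa and Mrtfb also under their older symbols, Mkl1 and Mkl2. In WT Ctrl neurites, 11 were called higher and 2 lower than in soma, where 9.01% of all genes were called higher and 4.54% lower. The median over the list was −0.011. Ppp1r9b (spinophilin, a spine scaffold that binds F-actin) stood at 149 ± 8.55 CPM in soma and 482 ± 62.8 CPM in neurites (mean ± SD, n = 2), a log2 change of 1.69 (SE 0.13, adjusted p = 0.000114). Capg, a filament capper, changed by 1.501 (SE 0.30, adjusted p = 0.00761), and Arpc1b, an Arp2/3 subunit, by 1.46 (SE 0.14, adjusted p = 0.000230). Capg was low, at 1.29 ± 0.376 CPM in soma and 3.68 ± 0.324 CPM in neurites. Both were high in the glia-rich KCl-treated Mettl3 KO libraries of replicate 1. There Arpc1b read 207 CPM in soma and 313 CPM in neurites, against 15.6 and 25.5 CPM in replicate 2. Capg read 34.8 and 32.5 CPM, against 2.58 and 2.79 CPM. The part of glia in their enrichment was not tested. The thymosin Tmsb15b1 changed by 1.41 (SE 0.26, adjusted p = 0.00487). It was low too, at 1.99 ± 0.492 CPM in soma and 5.35 ± 1.14 CPM in neurites. After KCl, 11 were called higher in neurites and none lower, against 6.87% and 2.73% of all genes, among them Ppp1r9b at 1.77 (SE 0.13), Pdxp (chronophin, which activates cofilin) at 1.29 (SE 0.13) and Limk1 (the kinase that inactivates it) at 1.19 (SE 0.15).

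KCl called 5 of these 88 higher and 1 lower in soma, against 3.74% and 2.96% of all genes. In neurites 4 were called higher and none lower, against 3.33% and 1.7% of all genes, so both counts lay near the background. In soma Vcl, vinculin, had 5.68 ± 0.158 CPM under Ctrl and 28.6 ± 0.913 CPM after KCl, a log2 change of 2.33 (SE 0.14, adjusted p = 1.87e-06), and by 2.58 (SE 0.14) in neurites. Srf itself rose by 1.56 (SE 0.31, adjusted p = 0.00795) in soma and by 1.36 (SE 0.32, adjusted p = 0.0269) in neurites. Igf2bp2, a relative of the zipcode binding protein, changed by 2.21 (SE 0.52, adjusted p = 0.0182) and the tropomyosin Tpm4 by 1.55 (SE 0.15, adjusted p = 6.4e-05) in soma, and the crosslinker Flna by 1.21 (SE 0.28, adjusted p = 0.0252) in neurites. Igf2bp2 was near the floor in soma, at 0.713 ± 0.329 CPM under Ctrl and 3.33 ± 1.75 CPM after KCl. Srf was low too, at 4.11 ± 0.291 and 12.1 ± 5.81 CPM. Srf binds the CArG box, searched as CC, then 6 bases that are each A or T, then GG, on a motif that reads alike on both strands. In the RefSeq promoters (250 bases before to 50 after each start, GRCm38), it occurred in Actg1, 1 of the 8 members in that table, which has no entry for Actb. The box was found in 1.81% of all genes there and in 1.63% of 32851 promoters. The Actg1 match lies 90 bases before the RefSeq start, which is not the gene start given above. Its stretch, chr11:120348566-120348595 on the minus strand, is shown with the box in capitals. It is shown because Srf rose while Actg1 changed by 0.12 (SE 0.096, adjusted p = 0.469) in soma.
Actg1 promoter: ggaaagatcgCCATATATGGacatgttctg

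Loss of Mettl3 was compared with WT in Ctrl soma and in Ctrl neurites, with CPM scaled over all 16 libraries. None of the 9 was called at 1.5-fold in soma, where 0.185% of 23750 genes were. The soma levels turned on 1 library. Tmsb10 read 593 and 533 CPM in WT and 925 and 61.7 CPM in Mettl3 KO. Tmsb4x read 918 and 872 CPM in WT and 872 and 94.4 CPM in Mettl3 KO, and Pfn1 254 and 248 CPM against 319 and 92.6 CPM. In each the lower Mettl3 KO value came from replicate 2, the library poor in short mRNAs, and the part of that in the result was not tested. Pfn2 was high in the same library, at 942 CPM against 466 CPM in replicate 1 and 352 and 348 CPM in WT.

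Fitted over all libraries, the soma change was −0.89 (SE 0.69, adjusted p = 0.754) for Tmsb4x, −0.19 (SE 0.77) for Tmsb10 and 1.01 (SE 0.37, adjusted p = 0.427) for Pfn2. Without replicate 2 of Mettl3 KO Soma Ctrl these were −0.069 (SE 0.40), 0.68 (SE 0.37) and 0.38 (SE 0.38), none called. With that library as the lone Mettl3 KO Soma Ctrl sample, Tmsb4x changed by −3.25 (SE 0.44) and Tmsb10 by −3.20 (SE 0.41). The lone sample was taken to vary like the other groups. Actg1 was steadier: 1179 and 1182 CPM in WT and 1807 and 1712 CPM in Mettl3 KO soma, a change of 0.57 (SE 0.25, adjusted p = 0.530). Like Actg1 and Pfn2, Cfl2 and Dstn lay wholly higher in Mettl3 KO (4 of the 9, against 25% of all genes), at 0.77 (SE 0.31) and 0.70 (SE 0.27), with adjusted p of 0.465 and 0.454.

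In Ctrl neurites, both Mettl3 KO libraries were above both WT libraries for all 9 genes, a pattern that 23.5% of all genes showed, yet none of the 9 was called, where 0.188% of 21814 genes were. Actg1 read 1141 and 1218 CPM in WT and 1706 and 1612 CPM in Mettl3 KO, a log2 change of 0.50 (SE 0.25, adjusted p = 0.728). Actb read 2013 and 1869 CPM in WT against 2796 and 2376 CPM, a change of 0.42 (SE 0.36, adjusted p = 0.935). The changes of the 9 ran from 0.23 (SE 0.68) for Tmsb4x to 0.60 (SE 0.78) for Tmsb10. The astrocyte list summed to 2051 to 3144 CPM in WT and to 2932 to 6745 CPM in these Mettl3 KO libraries, and its part was not tested. The 9 genes are measured in the same 4 libraries and are not 9 independent observations.

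Within Mettl3 KO Ctrl, 0 of 22557 genes were called in neurites against soma, that is 0%. With p not adjusted 5.49% (1239 genes) passed, and DESeq2 with adjusted p called 17. With CPM scaled within the Mettl3 KO libraries, Tmsb10 read 962 and 68.9 CPM in soma and 2048 and 1531 CPM in neurites, a log2 change of 1.79 (SE 0.99, adjusted p = 0.841). Tmsb4x changed by 1.72 (SE 0.87), its soma libraries reading 908 and 106 CPM. The median over all genes was −0.113. The difference of the neurite over soma ratio from WT was 1.86 (SE 0.89) for Tmsb4x, 1.82 (SE 0.98) for Tmsb10 and 1.03 (SE 0.52) for Pfn1, each with an adjusted p of 0.934 and none called by edgeR on the unadjusted p, where 4.19% of 22942 genes were. Without Mettl3 KO Soma Ctrl replicate 2, the differences were 0.26 (SE 0.48) for Tmsb4x, −0.12 (SE 0.44) for Tmsb10 and 0.14 (SE 0.34) for Pfn1.

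KCl in Mettl3 KO soma called 0 of 23679 genes. With p not adjusted 6.39% (1514 genes) passed 2-fold, and DESeq2 with adjusted p called 270. Actb read 3198 and 1906 CPM under Ctrl and 5031 and 3572 CPM after KCl, a log2 change of 0.76 (SE 0.53, adjusted p = 0.767), the highest value being in the library rich in glial markers. Without both KCl-treated Mettl3 KO libraries of replicate 1 the change was 0.50 (SE 0.50). Dstn changed by 0.27 (SE 0.43) and Pfn2 by −0.93 (SE 0.55). Without Mettl3 KO Soma Ctrl replicate 2 these were 0.65 (SE 0.42) and −0.26 (SE 0.54). The soma KCl response was called as different between genotypes by edgeR for none of the 9 on the unadjusted p, where 2.05% of 24058 genes were, the difference being −0.57 (SE 0.39) for Dstn and −0.94 (SE 0.53) for Pfn2, each with an adjusted p of 0.994. Without that library they were −0.21 (SE 0.36) and −0.30 (SE 0.50).

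Under Mettl3 loss, 0 of the 87 or 88 pathway genes tested were called in soma or neurites, where 0.185% and 0.188% of all genes were.

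Several of these genes share reads with copies of themselves elsewhere in the genome, and the authors counted reads that map to more than 1 place. Actg1 had 10 annotated pseudogenes with hits of at least 90% identity over 100 bases, and the separate counts of all its copies summed to 77.5% of the size of its own mean count, Gm12715 (99.7% identity) alone having 31413 counts. For Tmsb10, the counts of 6 annotated copies summed to 62.9% of the size of its own, led by Gm9844, annotated as protein-coding, and the pseudogene Gm3788. Both were called higher in WT Ctrl neurites too, by 0.81 (SE 0.13, adjusted p = 0.00225) and 1.36 (SE 0.22, adjusted p = 0.00309). For Cfl1 copies the figure was 9.69%. For Actb nearly all counts at such hits belonged to Lrrc58, another protein-coding gene that spans the pseudogene Gm15725, so no figure is given. No annotated copy was found for Cfl2, Pfn1, Pfn2 or Tmsb4x. The levels of Actg1 and Tmsb10 are therefore uncertain.

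The other gene whose log2 CPM was most like each of the 9 over the 16 libraries was found among 7255 protein-coding genes. For Tmsb10 it was its own copy Gm9844 (Pearson r = 0.998) and for Tmsb4x the ribosomal protein gene Rpl17 (r = 0.989). Pfn1 was most like Polr1d (0.979), Pfn2 most like Prkaca (0.966), Dstn most like Rab7 (0.959), Cfl2 most like Gstz1 (0.959), Actb most like Dnajc1 (0.952), Cfl1 most like Eif5 (0.949) and Actg1 most like Elmo1 (0.870). These correlations are descriptions over libraries that share groups and depth, and Mettl3 KO Soma Ctrl replicate 2, low for both thymosins, is among them.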

How the data were processed

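RNA-seq and DART-seq were measured in 16 libraries each. Per the file headers and the methods, the authors aligned reads with STAR 2.7.7a to mm10 and counted fragments per gene with featureCounts 2.0.1, multimapping reads included and without a strand option; the deposited values are raw counts, and the deposited gene length is the summed exon length. The deposited DART-seq site value is a fraction averaged by the authors over WT libraries, and their deposited score is a sum of such fractions per RNA. The authors' columns of fold changes, DESeq2 statistics and p-values were not used, and from those tables only symbol and biotype were taken.

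Counts were tested with edgeR 4.0.16 (R 4.3.3; quasi-likelihood, two-sided, TMM within the libraries of each fit, mean count of at least 10, mitochondrially encoded genes left out), on the 8 WT libraries, the 8 Mettl3 KO libraries or all 16. Calls needed 1.5-fold (KCl response, 2-fold) and an adjusted p of at most 0.05, or an unadjusted p where stated. CPM were scaled by TMM within a genotype or over 16 libraries, as stated. TMM factors over 16 libraries were also tried in the fits of 8 libraries after results had been seen. They moved Tmsb4x past the threshold in WT Ctrl neurites, so the scaling chosen first was kept and the other is an alternative. So are the crossed block and the fits without the KCl-treated Mettl3 KO libraries of replicate 1, added at the same stage. The fit was tested on simulated data for the WT libraries only, with the same spread for all genes. That test does not cover the fits with the more variable Mettl3 KO libraries. DESeq2 1.42.0, other scalings, filters, library sets and leaving out each library were alternatives. Copies were found with blastn 2.17.0. Sequences came from GRCm38 and RefSeq promoters; 55394 of 55573 genes are in the GENCODE M21 annotation used. Python 3.11.15 and pandas 2.3.3 were used.

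The 9 genes and all lists were chosen with earlier results of these data known. Named genes were the 9, reference genes, up to 4 called pathway genes per comparison by size of change, the most similar gene and the leading copies of each. With 2 libraries per group, p-values rest on a spread shared across groups. Depth was 33789183 to 71394235 counts per library.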

Additional observations from a re-analysis of the deposited data

Results flagged for a closer look

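Pfn1 moved in opposite directions between the genotypes in Ctrl: its neurite over soma log2 ratio was −0.056 and −0.036 in the WT pairs of libraries and 0.18 and 1.88 in the Mettl3 KO pairs, a difference of means of 1.07. The edgeR test of that difference gave 1.03 (SE 0.52, adjusted p = 0.934), and the unadjusted p missed the threshold as well. The ratio of 1.88 includes Mettl3 KO Soma Ctrl replicate 2, without which the fitted difference was 0.14 (SE 0.34). The WT ratios are close to 0 and changed sign with TMM factors over all 16 libraries. With 2 libraries per group, no search for single outlying values was made.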

How the results depend on the processing

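Of 144 counts of called members under alternatives, 133 were as in the report. In WT Ctrl neurites against soma, 1 member was called, where 13.6% of all genes were. With TMM factors over all 16 libraries (chosen after seeing the data) 2 were called, against 13.6% of all genes. With the 4 compared libraries alone 2 were called, against 13.8%. A fit of all 16 libraries, which shared the spread of the Mettl3 KO libraries, called 0 of all 23200 genes. Tmsb10 was 1.01 there (edgeR, adjusted p = 0.832). For the Mettl3 KO change in neurite enrichment, DESeq2 called 2 (6.9% of all genes) and a fit without the filter on low counts 3 (5.63%), against 4.19% in the report. Leaving out 1 library at a time called 0 to 2 in WT KCl neurites against soma, 0 to 5 in Mettl3 KO against WT soma, 0 to 2 in Mettl3 KO neurites against soma, 0 to 4 for the Mettl3 KO change in neurite enrichment and 0 to 6 for the genotype difference of the KCl response. The highest counts in Mettl3 KO comparisons came without Mettl3 KO Soma Ctrl replicate 1, and that in WT KCl without WT Soma KCl replicate 1. Each fit without a library leaves 1 library in a group, and the share of all genes called in it is not given. These counts therefore cannot tell a change in the members from a change in the whole fit. Of 99 member values, 38, none of them called, changed sign under some alternative. Under RLE scaling, levels moved by −3.24% to 3.16%.

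The methods pair soma with neurites of an insert and KCl with Ctrl of a litter, but the labels do not say that a replicate number marks either. Deviations of same-numbered libraries correlated at −0.133 to 0.897 in 8 pairs of groups, 3 of them over 0.1, so the pairing by number was not established. With a replicate block, 1 member was called in WT Ctrl neurites against soma, and 2714 genes in all against 3145 without the block (3035 with the crossed pairing, chosen after seeing the data). The block was part of the fits of changes in neurite enrichment, where 962 genes were called for Mettl3 KO and 296 without the block, with 0 members in either. At any fold, the block took the adjusted p of Tmsb10 after KCl in WT soma to 0.0587 and that of Dstn in WT KCl neurites against soma to 0.0788. The latter passed under 6 of 12 alternatives, and Tmsb10 there under 8 of 12. The 2 libraries per group limit all results.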
